A study of Homo sapiens with 8 samples.

Results

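In the stromal H3K9ac library, 2681 of 14444 peaks at protein-coding promoters had no H3K27ac peak of either culture condition nearby. They belonged to 2051 of the 9760 protein-coding genes that had any promoter H3K9ac there. A promoter peak was one that the authors assigned to a protein-coding gene with its centre at most 1000 bp from the transcription start site (TSS). It was counted as lacking H3K27ac when no peak centre of the astromal or the stromal H3K27ac list lay within 5000 bp of its own centre. These promoters are called H3K9ac-only below, which describes the peak lists and not a measured absence of H3K27ac. The members were chosen by the stromal H3K9ac list and both H3K27ac lists, so levels in those lists are a description. The astromal H3K9ac list was not used in the choice. The astromal H3K27ac list, of the same condition, was, so presence in the astromal H3K9ac list may not be independent of the choice.

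Acetylation of lysine 9 and of lysine 27 of histone H3 both mark nucleosomes beside the start sites of active genes. H3K27ac is laid down by the coactivators CBP and p300 and also marks active enhancers, whereas H3K9ac is written mainly by GCN5 and PCAF and sits close to start sites. At most active promoters the marks occur together, on the nucleosomes on either side of the nucleosome-free region.

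The cells were MIA PaCa-2, an established line of human pancreatic cancer cells, grown as spheroids in a cross-linked hyaluronan gel (Glycosil with the PEGDA linker Extralink). In the astromal condition water took the place of the collagen component Gelin-S, and the medium was DMEM with 2% FBS. In the stromal condition the gel held Gelin-S, and the medium, with 2% FBS, had been conditioned by immortalized myofibroblasts grown from resected human pancreatic ductal adenocarcinoma. Each mark and condition was represented by 1 ChIP-seq library, all from this 1 line, so no difference between conditions has a replicate check and no p-value is given.

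The astromal H3K9ac library was the shallowest, with 7141 peaks and an estimated 3923202 tags against 20326 peaks and 7569791 tags in the stromal library. The H3K27ac libraries had 13453902 astromal and 17190695 stromal tags. The level of a peak is its deposited tag count scaled to a library of 10000000 tags, so that 1 tag is worth 1.32 in the stromal and 2.55 in the astromal H3K9ac list. Brackets hold exact Clopper-Pearson 95% intervals for shares, which cover counting error only and take peaks as independent. As a check of the labelled cells, 5 of 18 epithelial and ductal markers and 6 of 22 mesenchymal and myofibroblast markers had stromal promoter H3K9ac, and none of 16 endocrine, acinar and blood cell markers did. ACTA2 and COL1A1, markers of myofibroblasts, were H3K9ac-only, with 29 and 17.2 normalised tags in the stromal list and no astromal promoter peak. Both rested on few tags, with 11 in the higher ACTA2 peak and 13 in the COL1A1 peak. The deposited annotation placed that ACTA2 peak at the end of a non-coding transcript, so its assignment to ACTA2 is uncertain. They were 2 of the 6 mesenchymal markers (33.3%, 4.33 to 77.7), an interval that covers the 21% of all coding promoter genes, and 0 of the 5 epithelial ones were (exact upper limit 52.2%).

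Clustered histone genes are shown first because they were the gene group in which the pattern was most frequent among genes with at least 20 tags in a promoter peak. The sequences are the 150 bases before the start site in RefSeq (GRCh38.p14), read 5′ to 3′ on the gene's strand. Capitals mark matches, on either strand, to the TATA box (TATAAA), the CCAAT box (CCAAT), the GC box (GGGCGG), the cAMP response element (TGACGTCA) or the ETS site (CCGGAA). The windows are chr6:26124022-26124171 (plus strand) for HIST1H2AC, chr6:26189113-26189262 (minus strand) for HIST1H4D, chr6:27838376-27838525 (minus strand) for HIST1H2AK and chr6:27808023-27808172 (plus strand) for HIST1H2AI. RefSeq now names these genes H2AC6, H4C4, H2AC15 and H2AC13, and the authors' older symbols are kept here.
HIST1H2AC: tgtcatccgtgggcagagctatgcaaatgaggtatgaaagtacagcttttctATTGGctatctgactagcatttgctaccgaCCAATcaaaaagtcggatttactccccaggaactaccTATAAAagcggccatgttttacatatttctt
HIST1H4D: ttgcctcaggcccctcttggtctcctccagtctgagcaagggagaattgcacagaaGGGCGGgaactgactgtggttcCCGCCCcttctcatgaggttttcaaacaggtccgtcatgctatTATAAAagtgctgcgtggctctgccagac
HIST1H2AK: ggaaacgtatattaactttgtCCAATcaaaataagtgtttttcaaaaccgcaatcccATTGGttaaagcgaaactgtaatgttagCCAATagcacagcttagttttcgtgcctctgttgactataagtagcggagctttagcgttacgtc
HIST1H2AI: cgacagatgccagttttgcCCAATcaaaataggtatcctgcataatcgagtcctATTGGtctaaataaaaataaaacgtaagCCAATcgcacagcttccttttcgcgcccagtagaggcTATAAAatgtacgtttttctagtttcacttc
HIST1H2AC, HIST1H2AK and HIST1H2AI encode histone H2A and HIST1H4D encodes histone H4. The window held TATAAA in HIST1H2AC and HIST1H2AI at base -31 and in HIST1H4D at base -29, counted backwards from the start site. HIST1H2AK held 3 CCAAT boxes and no TATAAA. GC content over 300 bases, 250 before the start and 50 after, was 41% for HIST1H2AC, 47% for HIST1H4D, 42.7% for HIST1H2AK and 41.7% for HIST1H2AI.

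The other windows show members of several other gene groups, from GC-rich promoters to ones with a TATA box. They lie at chr6:39229476-39229625 (minus strand) for the potassium channel gene KCNK5, chr16:85613172-85613321 (plus strand) for the corepressor gene GSE1, chr10:117375441-117375590 (minus strand) for PDZD8, chr4:121823884-121824033 (minus strand) for the cyclin A2 gene CCNA2, chr20:31605139-31605288 (plus strand) for ID1 and chr19:12791336-12791485 (plus strand) for JUNB.
KCNK5: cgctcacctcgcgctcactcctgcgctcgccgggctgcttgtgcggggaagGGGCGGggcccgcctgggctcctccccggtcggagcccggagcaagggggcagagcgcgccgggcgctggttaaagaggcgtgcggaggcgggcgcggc
GSE1: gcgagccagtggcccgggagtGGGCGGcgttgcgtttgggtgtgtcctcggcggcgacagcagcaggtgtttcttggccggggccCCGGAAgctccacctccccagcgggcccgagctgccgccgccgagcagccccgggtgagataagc
PDZD8: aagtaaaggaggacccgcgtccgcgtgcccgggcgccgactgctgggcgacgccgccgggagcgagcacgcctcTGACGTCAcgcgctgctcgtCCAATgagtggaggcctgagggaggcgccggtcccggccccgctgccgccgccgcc
CCNA2: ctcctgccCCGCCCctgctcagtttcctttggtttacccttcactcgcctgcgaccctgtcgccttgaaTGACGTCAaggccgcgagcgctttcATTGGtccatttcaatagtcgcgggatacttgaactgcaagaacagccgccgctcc
ID1: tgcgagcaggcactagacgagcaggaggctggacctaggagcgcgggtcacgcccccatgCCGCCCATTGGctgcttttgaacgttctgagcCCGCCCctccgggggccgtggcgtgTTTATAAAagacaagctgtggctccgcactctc
JUNB: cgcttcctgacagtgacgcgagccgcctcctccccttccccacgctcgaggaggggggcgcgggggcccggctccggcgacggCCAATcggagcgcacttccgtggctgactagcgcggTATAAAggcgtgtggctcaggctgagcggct
GC content over the same 300 bases was 76% for KCNK5, 71% for GSE1, 75% for PDZD8, 61% for CCNA2, 62.7% for ID1 and 71% for JUNB. PDZD8 and CCNA2 each carried a cAMP response element with a CCAAT box closer to the start. ID1 and JUNB, both induced by extracellular signals, held TATAAA next to the start. A match is a string of letters in this window and was not tested as a binding site.

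Over all members, promoters were rich in G and C and poor in ETS sites beside the remaining coding promoters. RefSeq held a promoter for 1632 of 1966 member genes outside chromosome 8 and for 6519 of 7482 other genes. Genes of chromosome 8 were not used for sequences. For genes with several listed starts, the first was taken, and 1130 of the 1632 had 1 start. The median GC content of the 300 bases was 69.7% (interquartile range 61.7 to 75.7) in member genes and 65% (59 to 71) in other genes with promoter H3K9ac. It was 62.7% in the 15843 protein-coding promoters available under the same limits, 1 per gene, which are called all promoters below. The observed over expected CpG ratio was similar, at 0.847 in member genes and 0.863 in other genes. The ETS site CCGGAA, the core bound by ETS family activators, was present in 21.3% (19.3 to 23.3) of member promoters and in 36.1% (34.9 to 37.3) of the others, against 22.9% of all promoters. The NRF1 site GCATGCGC was found in 3.98% (3.09 to 5.05) and 6.81% (6.21 to 7.45), against 4.26% of all. The GC box, bound by SP factors, had the opposite order, with 78.7% (76.6 to 80.6) of member and 72.2% (71.1 to 73.3) of other promoters, against 58.5% of all. It overlaps with GC content by its letters.

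Member genes also had the lower ETS share and the higher GC content among genes whose highest promoter peak had at least 20 tags, the median of the stromal list. There the ETS site was present in 24.6% (20.7 to 28.9) of 451 member promoters and 37% (35.7 to 38.4) of 5050 others, the first now slightly above the 22.9% of all promoters, and median GC content was 69.3% and 65%. The NRF1 shares came closer together, at 5.99% (3.98 to 8.59) and 7.13% (6.43 to 7.87), with overlapping intervals.

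The remaining motifs are given for all 1632 member and 6519 other promoters. TATAAA was present in 5.39% (4.35 to 6.6) of member and 4.4% (3.92 to 4.93) of other promoters and in 9.63% of all. CCAAT was found in 32.8% (30.6 to 35.2), 38% (36.8 to 39.2) and 36.4%. The cAMP response element was found in 3% of member and 3.68% of other promoters, the AP-1 site TGACTCA in 2.45% and 2.7%, and the E-box CACGTG in 10.2% and 11%, each with overlapping intervals. Among genes with at least 20 tags the cAMP response element (3.99% and 3.74%) and the AP-1 site (2.88% and 2.67%) had the opposite order, again with overlapping intervals. Both strands were searched in every case.

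**Figure D1:**
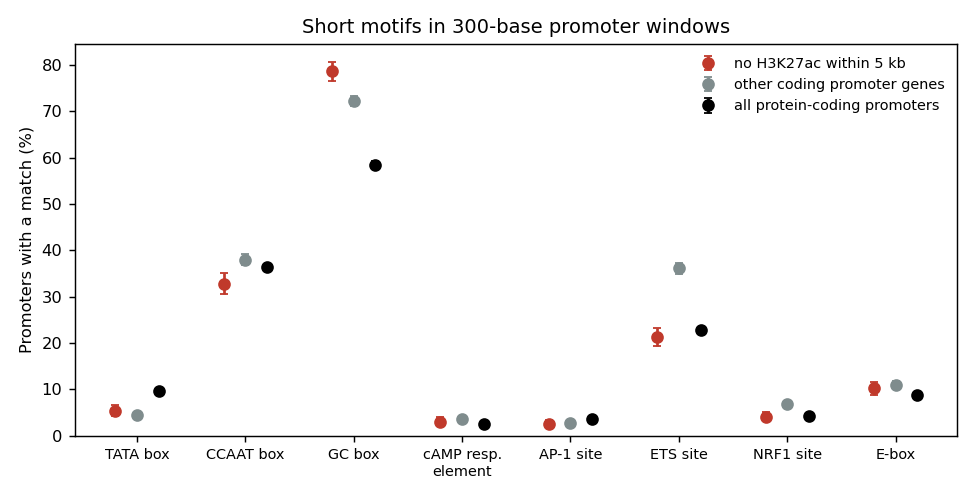
Percent of promoters (vertical axis) whose 300-base window holds each short motif, for the 1632 H3K9ac-only genes, the 6519 other genes with promoter H3K9ac and all 15843 protein-coding promoters in RefSeq; bars are exact 95% intervals. The ETS site is at 21.3% in the first set and 36.1% in the second, and the GC box at 78.7% and 72.2%.

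H3K9ac-only promoters had low H3K9ac. Their median stromal level was 18.5 normalised tags (interquartile range 14.5 to 25.1), or 14 tags, and single peaks ran from 10.6 to 71.3. The 11763 coding promoter peaks with H3K27ac nearby had a median of 30.4 (22.5 to 39.6), or 23 tags, and reached 128.1. Only 21.3% (19.8 to 22.9) of H3K9ac-only peaks had 20 tags or more, against 65.3% (64.5 to 66.2) of the others. The ranges of the sets overlapped. The share of coding promoter peaks that were H3K9ac-only, 18.6% (17.9 to 19.2) over all levels, fell from 58.9% (56.1 to 61.7) of peaks under 12 tags to 20.6% at 16 to 19 tags and 1.93% (1.48 to 2.47) at 30 tags or more. The H3K27ac lists required 4-fold over the surrounding 10 kb, a filter that removed 12583 of 30936 putative stromal and 11543 of 27707 putative astromal peaks. Its part in the absence of H3K27ac peaks here was not tested.

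**Figure D2:**
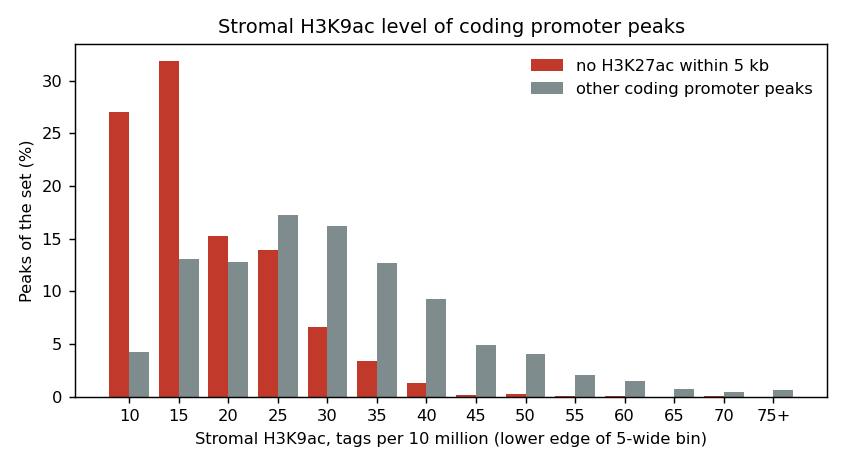
Percent of the peaks of each set (vertical axis) by stromal H3K9ac level in normalised tags (horizontal axis, bins of 5, the last one open), for H3K9ac-only and other coding promoter peaks. The first set is centred on lower levels, with medians of 18.5 and 30.4.

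Most member genes had a single H3K9ac-only peak. There were 1454 genes with 1 such peak, 565 with 2, 31 with 3 and 1 with 4, and summed over these peaks the median gene had 23.8 normalised tags. Of the 2051 genes, 75 also had another promoter peak that did lie near H3K27ac. No further stromal H3K9ac peak of any kind lay within 5 kb of 46.4% (44.5 to 48.3) of H3K9ac-only peaks, against 20.3% (19.6 to 21) of the others. The nearest H3K27ac centre was a median of 55185 bp away (interquartile range 25092 to 124659). Peaks lay a median of 346 bp from the TSS, 66.5% (64.7 to 68.3) of them downstream, beside 322 bp and 63.9% (63 to 64.8) for other peaks.

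In the deposited annotation 44.6% (42.7 to 46.5) of the H3K9ac-only peaks were at a promoter-TSS, 37.9% (36.1 to 39.8) in an intron, 7.94% in an exon and 7.42% in a 5′ UTR. Introns were a larger share than among other coding promoter peaks, of which 31% (30.2 to 31.8) were intronic. The detailed annotation placed 62.7% (59.6 to 65.7) of 1016 intronic H3K9ac-only peaks in a CpG island and 53.7% (52.1 to 55.3) of 3647 intronic other peaks. A sequence criterion on the RefSeq promoter windows used for motifs had the opposite order. GC content of at least 50% with a CpG ratio of at least 0.6 held for 82.5% (80.5 to 84.3) of 1632 member promoters. It held for 86.9% (86 to 87.7) of 6519 other promoters. Among genes with at least 20 tags the shares were 81.8% (77.9 to 85.3) and 87.7% (86.7 to 88.6). By chromosome, the share of coding promoter peaks that were H3K9ac-only ran from 11.9% (9.98 to 13.9) on chromosome 19, which is dense in genes, many of them zinc finger genes, to 27% (22.3 to 32) on chromosome 22. Chromosomes 15 and 8 followed at 25.3% each, with intervals that overlap that of chromosome 22.

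Close to the distance limit, membership turned on few bases. ARVCF, a catenin gene, lay 5012 bp from the nearest H3K27ac centre, CCDC57 5013 bp and AHCYL1 5032 bp, with 11.9, 22.5 and 31.7 normalised tags in the peak. Just outside the set were the Hedgehog receptor gene PTCH1 at 4960 bp and RNF10 at 4954 bp, with 31.7 and 34.3. Among member genes above their median level of 23.8 normalised tags, the farthest from H3K27ac were PLSCR1, a phospholipid scramblase gene at 2541847 bp (26.4 normalised tags), EFR3A at 1376104 bp (27.7), the methionine sulfoxide reductase gene MSRB2 at 1370242 bp (44.9) and CHIC2 at 1282716 bp (29.1). Of these 4, CHIC2 alone had an astromal promoter peak, of 20.4 normalised tags.

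The highest stromal level among member genes was that of IFT80, a subunit of the intraflagellar transport complex that builds cilia. It had 113.6 normalised tags (86 tags) in 2 promoter peaks and 22.9 (9 tags) in the astromal list, the higher stromal peak lying on chromosome 3 from 160117670 to 160117880 (hg19), at -455 bp from the TSS. GSE1, which encodes a coiled-coil protein of histone deacetylase corepressor complexes, had 111 normalised tags (84 tags) in 3 peaks and no astromal promoter peak. The GSE1 peak with the highest level lay in intron 1 on chromosome 16 from 85646948 to 85647158. ZNF839, a zinc finger gene, had 104.4 (79 tags) in 3 peaks and 63.7 (25 tags) in the astromal list. These 3 genes thus covered the range from no astromal peak to more than 60 normalised tags there.

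CSNK1D, the casein kinase 1 delta gene, had 84.5 normalised tags (64 tags) in the stromal list and 15.3 (6 tags) in the astromal one. FBXO18, an F-box DNA helicase gene, had 79.3 (60 tags), and PDZD8, a lipid transfer protein gene of the endoplasmic reticulum, 79.2 (60 tags), both with no astromal promoter peak. The nearest H3K27ac centre to PDZD8 was 371454 bp away. BAG3, a cochaperone of HSP70, had 79.2 stromal and 17.8 astromal normalised tags, and NINJ1, a mediator of plasma membrane rupture, 75.4 and 17.8.

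ID1, an inhibitor of basic helix-loop-helix factors and a target of BMP signalling, had 75.3 normalised tags (57 tags) in 2 peaks, the higher one in its exon 1 on chromosome 20 from 30193424 to 30193634. No astromal promoter peak was assigned to ID1, although the centre of an astromal H3K9ac peak lay 1215 bp from its nearest member peak. The lysine methyltransferase gene SETD7 (75.3), CCDC136 (74) and the tetraspan gene LHFPL2 (74) had no astromal promoter peak either. All 4 lay well above the 39.6 normalised tags of the median coding promoter gene.

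**Figure D3:**
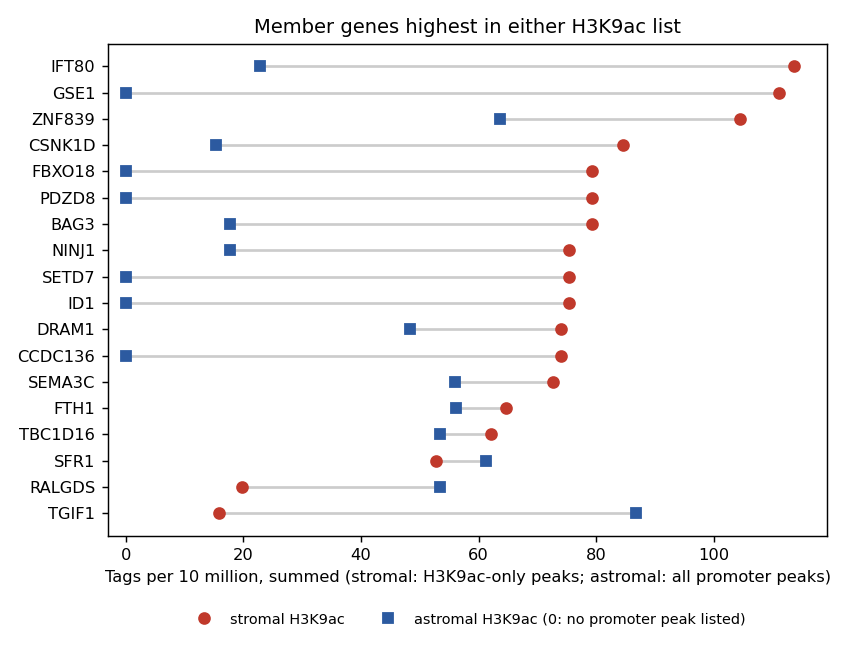
H3K9ac level (horizontal axis, normalised tags) summed over H3K9ac-only peaks in the stromal list and over all promoter peaks in the astromal list, 1 library each, for 18 H3K9ac-only genes among those with the highest level in either list; 0 means that no astromal promoter peak is listed. IFT80 is highest in the stromal list at 113.6, and TGIF1 highest in the astromal list at 86.7.

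The highest astromal level among member genes was that of TGIF1, a corepressor of TGF-beta signalling, with 86.7 normalised tags (34 tags) in 2 peaks against 15.9 (12 tags) in 1 stromal peak. The astromal and stromal TGIF1 peaks were at different start sites of the gene, since the stromal one lay on chromosome 18 from 3411956 to 3412166 and the astromal ones began at 3447629 and 3448579. RALGDS, a RAS effector that activates RAL, had 53.4 astromal normalised tags in 3 peaks that began from 136023509 to 136025139 on chromosome 9. Its 1 H3K9ac-only peak, of 19.8, began at 135996016, and its other 2 stromal promoter peaks, of 31.7 and 43.6 and near H3K27ac, began at 136023883 and 136025082, beside the astromal ones. For these genes the values in the 2 lists do not describe 1 promoter.

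The other genes highest in the astromal list had peaks close together. FTH1, the ferritin heavy chain gene, had 1 peak in each list, of 64.7 stromal (49 tags) and 56.1 astromal (22 tags) normalised tags, with centres 236 bp apart, so that they did not overlap. SFR1, a cofactor of homologous recombination, had 52.8 stromal and 61.2 astromal normalised tags. SEMA3C, a secreted semaphorin gene, had 72.7 and 56, DRAM1, a p53 target that promotes autophagy, 74 and 48.4, and TBC1D16, a RAB GTPase-activating protein gene, 62.1 and 53.5. All 5 promoters held H3K9ac in both conditions with no listed H3K27ac within 5 kb in either.

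Few H3K9ac-only peaks were found in the astromal H3K9ac list. Overlap by at least 1 bp was seen for 226 of 2681 (8.43%, 7.41 to 9.55), against 4148 of 11763 other coding promoter peaks (35.3%, 34.4 to 36.1) and 30.3% of all 14444. By gene, 303 of 2051 (14.8%, 13.3 to 16.4) had an astromal promoter peak, against 4432 of 7709 other genes (57.5%, 56.4 to 58.6) and 48.5% of all. Where the gene had another promoter peak near H3K27ac, 37 of 75 did. Of the 1748 member genes with no astromal promoter peak, 18 had an astromal peak assigned to another gene within 1000 bp of a member peak. The astromal list was limited by depth. Its 5th percentile was 17.8 normalised tags, and 44.2% (42.3 to 46.1) of H3K9ac-only peaks lay below that level in the stromal list, against 9.95% of other peaks.

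The gap remained at matched stromal levels but was smaller. Other coding promoter peaks weighted to the tag counts of the H3K9ac-only peaks overlapped an astromal peak in 14.4% of cases, against the 8.43% observed. At 12 to 15 tags the shares were 5.15% (3.76 to 6.85) and 8.99% (7.61 to 10.5), at 16 to 19 tags 9.64% (7.26 to 12.5) and 16.9% (15.3 to 18.6), and at 20 to 24 tags 15.6% (12.1 to 19.7) and 29% (27.2 to 30.8). At 30 tags or more they were 44.3% (31.5 to 57.6) of 61 H3K9ac-only peaks and 65.7% (64 to 67.3) of 3100 others. The intervals stayed apart in all 6 classes of stromal level. They take peaks as independent, although peaks of 1 gene share a promoter, and cover neither culture nor library variation. The same rule applied to the astromal H3K9ac list found 294 of 5675 coding promoter peaks (5.18%, 4.62 to 5.79).

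**Figure D4:**
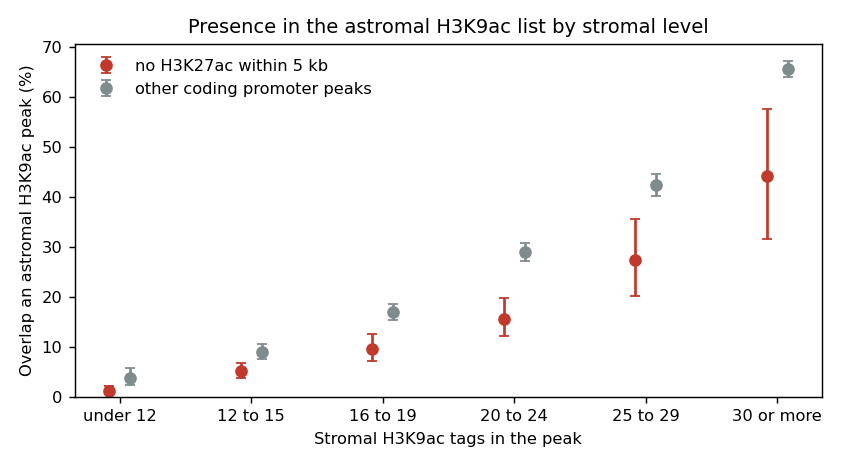
Percent of coding promoter peaks that overlap an astromal H3K9ac peak (vertical axis) by the number of stromal H3K9ac tags in the peak (horizontal axis), for H3K9ac-only peaks and other peaks, with exact 95% intervals. In each class the H3K9ac-only peaks are lower, for example 15.6% against 29% at 20 to 24 tags.

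Where both libraries had a peak, H3K9ac-only promoters were higher in the stromal library with a median log2 ratio of 0.41 (quartiles 0.05 and 0.71), and 174 of 226 were higher there. Centred on the median of all shared coding promoter peaks, the value turned to -0.23. Other shared peaks had a median of 0.64 (0.35 to 0.95). Of these others, 3814 of 4148 (91.9%, 91.1 to 92.8) were higher in the stromal library. That is a larger share than the 77% (70.9 to 82.3) of shared H3K9ac-only peaks. The ratio depended on the stromal level that entered it. Within several classes of stromal level the medians of the sets lay close together. They were 0.25 and 0.22 for 16 to 19 tags, 0.67 and 0.69 for 25 to 29 tags, and 0.84 and 0.88 for 30 tags or more. At 20 to 24 tags they were 0.64 for H3K9ac-only and 0.44 for other peaks, with overlapping quartiles. Under 12 tags the order was opposite, at -0.58 for 8 shared H3K9ac-only peaks and -0.30 for 19 others, also with overlapping quartiles. At 12 to 15 tags the medians were -0.14 and -0.05. The shared H3K9ac-only peaks had medians of 26.4 stromal and 20.4 astromal normalised tags (20 and 8 tags).

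After centring on 0.64, the median of all shared coding promoter peaks, 0 of the 226 were at least 2-fold higher in the stromal library with an interval that left out 0, and 6 were at least 2-fold lower. Over all 4374 shared peaks these shares were 0.32% and 0.64%. Because the ratio fell with the stromal level, and the H3K9ac-only peaks had lower stromal levels, nothing is read from the count of 6 beside those shares. The 6 were FAM118A, with 18.5 stromal and 33.1 astromal normalised tags and a centred log2 ratio of -1.48 (-2.68 to -0.27), AIG1 (-1.47), FAM21A of the WASH complex (-1.45), the endosomal gene RABEP1 (-1.45), the selenoprotein gene SELM (-1.15) and TBC1D16 (-1.07). None of them was 2-fold lower before centring, where FAM118A was at -0.84. Each value is for 1 peak. Summed over promoter peaks, AIG1, RABEP1 and TBC1D16 (62.1 and 53.5) were higher in the stromal library, whereas FAM118A and FAM21A were lower.

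With at least 10 tags in each library, 44 member genes could be compared at an overlapping pair of peaks. HIST1H2AC had the highest ratio, at 1.19 (0.18 to 2.35), from 58.1 stromal and 25.5 astromal normalised tags. After centring it was 0.55 (-0.46 to 1.71), and a second astromal peak of 22.9 brought the gene to 48.4 in that list. TSKU, a secreted proteoglycan gene (0.82), the ETS family repressor gene ETV3 (0.73), CGRRF1 (0.71) and DRAM1 (0.69) followed, each with an interval that includes 0. At the other end were FAM118A, AIG1 (-0.83), FAM21A (-0.81), RABEP1 (-0.81) and the zinc finger gene ZFP69 (-0.57). Their compared peaks were lower in the stromal library, again with intervals that include 0. Summed over promoter peaks, AIG1 (47.6 stromal and 30.6 astromal), RABEP1 (37 and 25.5) and ZFP69 (44.9 and 25.5) were higher in the stromal library. FAM118A (30.4 and 33.1) and FAM21A (14.5 and 25.5) were lower there in the sum too. Pairs with 10 tags in the astromal peak gave intervals more than 2 log2 units wide.

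Gene groups differed widely in how many of their genes were H3K9ac-only, beside 21% (20.2 to 21.8) of all 9760 genes with stromal promoter H3K9ac. The groups also differed in H3K9ac level. The median level of a group is that of its genes' stromal normalised tags, summed over promoter peaks, which was 39.6 for all genes. Among genes with a peak of at least 20 tags, 8.15% (7.49 to 8.84) of 6493 were H3K9ac-only, which is the background for shares given with the tag minimum.

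Clustered histone genes, which are transcribed in S phase, were H3K9ac-only at 14 of 33 (42.4%, 25.5 to 60.8), with a median level of 35.7 normalised tags in the group. Their share did not fall with the tag minimum, at 12 of 27 (44.4%, 25.5 to 64.7). HIST1H2AC and HIST1H4D each had 58.1 normalised tags, HIST1H2AK 50.2 and HIST1H2AI 44.9. Of these 4, HIST1H2AC had astromal promoter peaks, with 48.4 normalised tags. In all, 6 of the 14 did, beside 14.8% of all member genes. Of the 19 other histone genes, 12 did, beside 57.5% of all other genes. These counts go by the gene named for the astromal peak. The HIST1H2BB peak, of 35.7, overlapped an astromal peak of 28 normalised tags that was not counted for HIST1H2BB. An astromal H3K9ac centre also lay 1668 bp from the HIST1H2AK peak. HIST1H2AC carried its stromal peak on chromosome 6 from 26124822 to 26125032, 554 bp downstream of its TSS. The nearest H3K27ac centre was 20404 bp from HIST1H2AC, 15471 bp from HIST1H4D, 10809 bp from HIST1H2AK and 14790 bp from HIST1H2AI. With a distance limit of 10000 bp the share of the histone genes was 24.2% (11.1 to 42.3), beside 19.5% of all genes. Neighbouring histone genes often share a promoter region, and the authors assigned each peak to the nearest start only.

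Over all tag levels, genes of cell contact and adhesion were often H3K9ac-only. Of collagen, laminin and integrin genes, 9 of 17 were (52.9%, 27.8 to 77), in a group with a median level of 30.4 normalised tags. ITGA5, the alpha subunit of the fibronectin receptor, had 60.8 stromal and 15.3 astromal normalised tags, and ITGB1, the beta 1 subunit common to many integrins, 47.6 and 35.7. The laminin gene LAMA5 (41) and ITGB5 (35.7) had no astromal promoter peak. With the tag minimum the group had 2 of 7 (28.6%, 3.67 to 71), an interval that covers 8.15%. Cadherin and protocadherin genes were H3K9ac-only at 5 of 10 (50%, 18.7 to 81.3, which includes 21%), all with low levels, from 11.9 to 22.5 for PCDH9, and none of the 5 had an astromal promoter peak, beside 14.8% of all member genes. None of the 5 other genes of the group had an astromal promoter peak either, and nothing is read from these counts. The median level of the group was 16.55, and with the tag minimum it had 0 of 1.

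Ion channel and receptor channel genes were H3K9ac-only at 17 of 36 (47.2%, 30.4 to 64.5), in a group with a median level of 23.8 normalised tags. KCNK5, a background potassium channel gene, was highest with 60.7 stromal and 33.1 astromal normalised tags. KCNJ12, an inward rectifier gene, had 35.6, the ATP-gated channel gene P2RX5 27.7 and the cation channel gene TRPC1 25.1, all with no astromal promoter peak. With the tag minimum 2 of 12 remained (16.7%, 2.09 to 48.4). Solute carrier genes stood at 40 of 146 (27.4%, 20.3 to 35.4), an interval that includes 21%, with a median level of 33.65 and 10% (4.68 to 18.1) with the tag minimum. The folate carrier gene SLC19A1 had 51.5 stromal and 25.5 astromal normalised tags, and the amino acid and nucleoside carrier genes SLC43A2 (51.5) and SLC29A1 (47.5) had no astromal promoter peak.

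Developmental transcription factor genes were H3K9ac-only at 22 of 62 (35.5%, 23.7 to 48.7), but at 3 of 32 (9.38%, 1.98 to 25) with the tag minimum, close to all genes. The median level of the group was 37.65. GLI4 was highest with 51.5 stromal and 15.3 astromal normalised tags. It was the 1 member of 22 with an astromal promoter peak, beside 14.8% of all member genes. Of the 40 other genes of the group, 15 had one, beside 57.5% of all other genes. The homeobox gene HOXA13 had 40.9 in 2 peaks, the higher one in its exon 1 on chromosome 7 from 27238896 to 27239106. FOXD2 had 30.4 and the homeobox gene DLX6 25.1. Other members, such as MSX1 (18.5), PAX2 (14.5) and NKX2-1 (13.2), rested on a few tags each. C2H2 zinc finger genes, the largest group, had a share below the background, with 63 of 408 (15.4%, 12.1 to 19.3), and 5.57% (3.28 to 8.77) with the tag minimum, an interval that covers 8.15%. ZNF3 (64.7 stromal and 28 astromal), ZNF23 (60.8 and 20.4) and ZFP2 (60.7 and 20.4) followed ZNF839.

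Immediate early and growth factor feedback genes were H3K9ac-only at 9 of 23 (39.1%, 19.7 to 61.5, an interval that includes 21%), with a median level of 38.4 normalised tags in the group. ATF3, a stress-induced activating transcription factor gene, had 72.7 stromal and 22.9 astromal normalised tags in the 2 lists. ETV4, an ETS factor gene downstream of RAS signalling, had 40.9 and IER5 34.4, both with no astromal promoter peak. JUNB, a subunit of AP-1, had 30.4 and 17.8, its stromal peak lying in exon 1 on chromosome 19 from 12902561 to 12902771. The ERK phosphatase gene DUSP6 (14.5) and FOS (13.2), which encodes another AP-1 subunit, had low stromal levels and no astromal promoter peak. With the tag minimum 3 of 14 were H3K9ac-only (21.4%, 4.66 to 50.8).

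The basic cell machinery was rarely H3K9ac-only. None of 75 cytosolic ribosomal protein genes was, with an exact upper limit of 4.8%, and none of 36 aminoacyl-tRNA synthetase genes, with one of 9.74%. With the tag minimum there were 0 of 62 and 0 of 31, with exact upper limits of 5.78% and 11.2%, the first below 8.15%. The respiratory chain had 1 of 81 (1.23%, 0.0313 to 6.69), the complex I gene NDUFV1 with 31.7 stromal and 17.8 astromal normalised tags. Proteasome subunits had 1 of 40 (2.5%), the activator gene PSME1, of which 1 of 2 promoter peaks lay 5198 bp from H3K27ac. With the tag minimum they were at 1.35% (0.0342 to 7.3) and 0 of 34 (exact upper limit 10.3%). Levels in these groups were above the 39.6 of all genes, with medians of 46.2, 44.3, 44.9 and 44.9 normalised tags in the order named.

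Mitochondrial ribosomal protein genes had 4 of 75 (5.33%, 1.47 to 13.1) and splicing factor genes 5 of 98 (5.1%, 1.68 to 11.5). All 5 splicing factor members were RNA-binding motif (RBM) genes, grouped by name, and their role in splicing was not checked. MRPL20 had 60.7 stromal and 43.3 astromal normalised tags, whereas MRPS18B (39.6) and the RNA-binding protein gene RBM38 (58.2) had no astromal promoter peak. The centre of an astromal H3K9ac peak nevertheless lay 1175 bp from the MRPS18B peak. The mitochondrial ribosomal protein and splicing factor groups had median levels of 41 and 50.2. RNA helicase genes had 3 of 47 (6.38%), DNA repair genes 6 of 66 (9.09%, 3.41 to 18.7) and cilium and centriole genes 11 of 92 (12%, 6.12 to 20.4). Under the tag minimum these were at 2.78% (0.0703 to 14.5), 4.08% (0.498 to 14) and 1.85% (0.0469 to 9.89), all with intervals that cover 8.15%. The mismatch repair gene MLH3 had 34.3 and PARP1, which senses DNA breaks, 21.1, both with no astromal promoter peak. Mitochondrial ribosomal protein genes were close to all genes with the tag minimum, at 6.06% (1.68 to 14.8), whereas splicing factors were at 2.25% (0.273 to 7.88).

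Several groups had shares whose intervals included the 21% of all genes. Deubiquitinase and E2 enzyme genes stood at 17 of 81 (21%, 12.7 to 31.5), RAB GTPase genes at 11 of 43 (25.6%, 13.5 to 41.2), testis-expressed and cancer-testis genes at 7 of 23 (30.4%, 13.2 to 52.9), central metabolism genes at 9 of 65 (13.8%, 6.53 to 24.7) and cell cycle and mitosis genes at 8 of 55 (14.5%, 6.5 to 26.7). Their shares with the tag minimum were 11.7%, 15.6%, 10%, 8.89% and 0%, the last with an exact upper limit of 11.6%, and all 5 intervals covered 8.15%. Among these UBE2L6, the conjugating enzyme of ISG15, had 60.8 stromal normalised tags, and RAB12 had 54.1. The pyruvate kinase gene PKM had 52.9 stromal and 25.5 astromal normalised tags, and the hexokinase gene HK1 48.9 and no astromal promoter peak. Of the 8 cell cycle genes none had an astromal promoter peak, beside 14.8% of all member genes, and nothing is read from this count. They included CCNA2 (42.3), SPC24 of the kinetochore (39.7) and the transcription factor genes E2F1 (29.1) and E2F2 (23.8).

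**Figure D5:**
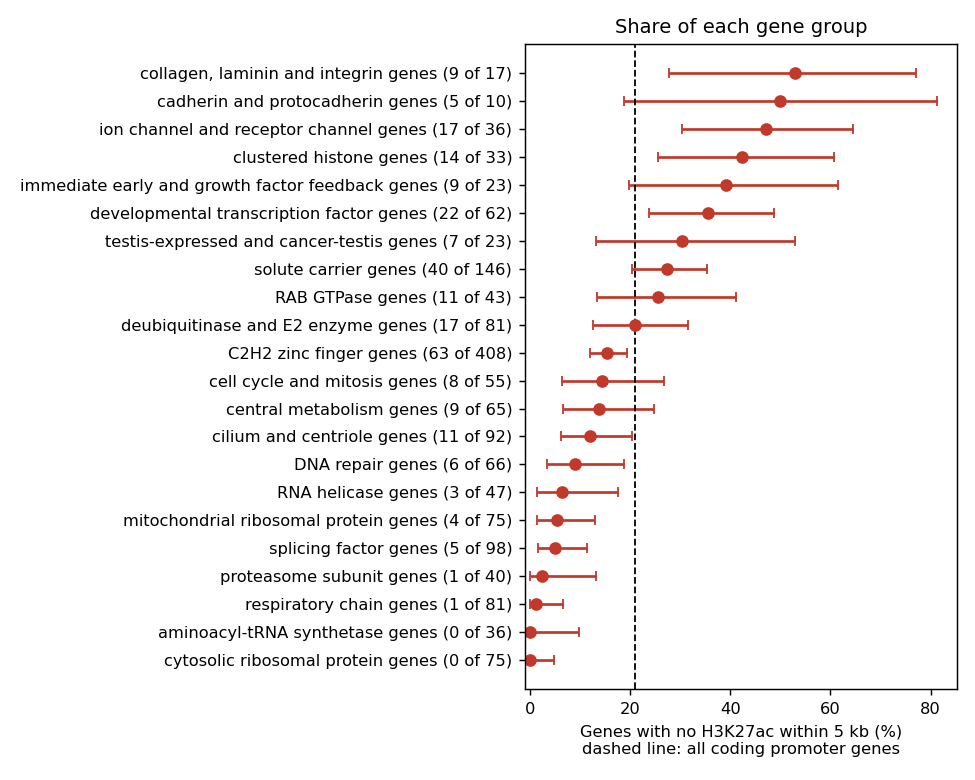
Percent of the genes of each group with stromal promoter H3K9ac that were H3K9ac-only (horizontal axis), with exact 95% intervals and member counts, for groups of at least 10 such genes; the dashed line is the 21% of all coding promoter genes. Collagen, laminin and integrin genes are highest at 52.9%, and cytosolic ribosomal protein and aminoacyl-tRNA synthetase genes are at 0.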

How the data were processed

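ChIP-seq of H3K9ac and H3K27ac was deposited as 4 peak lists, 1 per mark and condition, each from 1 library. The 4 input libraries are not analysed here. The submitters' processing notes name CASAVA 1.8.2, Bowtie, HOMER and build hg19. H3K27ac peaks were called by HOMER against input at an FDR of 0.001, with at least 4-fold over input and over the surrounding 10 kb, per the file headers. How H3K9ac peaks were called is not given in the sources used here. Peak signal is the tag count that the authors normalised to 10000000 tags, in the deposited lists of both marks. The deposited fold over control, a ratio, was used only to restrict H3K27ac peaks to those at least 8-fold over input in 1 alternative. H3K9ac signal rose in even steps, all within 0.1 tag of whole tags, which gave tags per peak and the depth.

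Membership, overlap by at least 1 bp, gene counts and motif matches were computed with Python 3.11.15, pandas 2.3.3, numpy 2.4.6 and scipy 1.17.1, after the steps had been tested on simulated data. Ratio intervals come from exact binomial limits of the 2 tag counts. The members and the 25 gene lists were chosen with earlier results of these data known. Genes were named by a rule: the 12 with the highest stromal and the 8 with the highest astromal level, the 8 highest with no astromal promoter peak, up to 4 per list, 3 on either side of the distance limit, the 5 highest and 5 lowest ratios with at least 10 tags in each library, and the 4 farthest from H3K27ac among those above the member median level. In stromal levels of named genes only H3K9ac-only peaks are summed. MSX1, PAX2, NKX2-1, DUSP6, FOS, TRPC1 and SELM were named after their values were seen. A few genes that the rule names are not reported here. CpG islands are given for intronic peaks, which carry that annotation. Alternatives changed the distance, the promoter window, the tag minimum, the H3K27ac peaks used and the overlap rule.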

Additional observations from a re-analysis of the deposited data

How the results depend on the processing

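No paired analysis was possible because each group was 1 library. The number of H3K9ac-only peaks stayed within 1.5 times of 2681 under 6 of 7 alternatives. The exception was a minimum of 20 stromal tags, which leaves fewer peaks by its construction, with 572 peaks, 529 genes, 6.93% of coding promoter peaks, a median of 30.4 normalised tags, overlap with astromal H3K9ac of 21.5% against 47.4% for other peaks and 35.2% after weighting, a median log2 ratio of 0.69 and a CpG share of 69.6%. The share of coding promoter peaks was 19.7% at 2000 bp and 17.3% at 10000 bp from H3K27ac, 17.8% within 500 bp of the TSS, 19.9% with H3K27ac peaks at least 8-fold over input and 25.8% with the stromal H3K27ac list alone. Within 500 bp of the TSS, other peaks overlapped astromal peaks in 38.2% (15.5% weighted), and the CpG share was 70.2%. With centres within 500 bp in place of overlap, the shares were 10.9%, 45.5% and 20.9% weighted. Centring on all shared peaks turned the median log2 ratio to -0.23. Under each alternative run for both, H3K9ac-only peaks were found in the astromal list less often than other peaks. The shares of the gene lists and of all coding promoter genes were tried under the same alternatives after the data had been seen. They stayed in their intervals in 150 of 175 cases. Intervals of small lists are wide, so staying in them says little there. With the stromal H3K27ac list alone, the share was 13.9% for aminoacyl-tRNA synthetase genes, against 0, and 24.3% for C2H2 zinc finger genes, beside 28.7% of all coding promoter genes. Depth limits the astromal list, whose median peak held 9 tags, so absence from it is not absence of H3K9ac.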
